A study of Mus musculus with 19 samples.

Results

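Reads from the untranslated region of Foxa1 come from the mouse gene itself, since a virus that carries only the coding region gives none. The 5 iEpt+NAF grafts of the study were divided on that basis. FS002, FS003 and FS005 have a ratio of Foxa1 3′ UTR to coding reads above 0 in the supplementary table of the study, whereas FS007 and FS008 have a ratio of 0. The 2 sets are called here the grafts with and without Foxa1 UTR reads. The members described were chosen by the deposited values of these same 5 grafts, as the genes with no overlap between the 3 and the 2 grafts and a difference of the means of at least 2 on the deposited log2 scale, which is a 4-fold difference or more at high values. They number 2581 of the 23284 genes in the table, 2240 higher and 341 lower in the grafts with Foxa1 UTR reads. Because the grafts were divided by a readout of the same libraries and the genes by their values, every difference between the sets is given as a description, with no test.

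The grafts were made from C57BL/6 mouse embryonic fibroblasts (MEFs), taken from limb buds and in some experiments heterozygous for a lacZ reporter allele. Retroviruses with human OCT4, SOX2, KLF4 and c-MYC (OSKM) turned them into induced epithelial (iEpt) cells, and lentiviruses then introduced Foxa1 and the other prostate regulators of the combination that the study calls NAF. The cells were recombined with rat embryonic urogenital mesenchyme and grown for 6 weeks under the kidney capsule of male nude mice given testosterone, so all 5 grafts share these agents, a rat stroma and a mouse host. The graft labels name neither the introduced factors nor the set, which rest on the study's text, and which cell preparation gave which graft is not given. Any difference between preparations therefore cannot be told apart from the difference between the sets. The sets also differed in reads of the introduced human OSKM genes. The study's supplementary table gives more coding reads of SOX2, KLF4 and MYC in FS007 and FS008 than in each other graft, while OCT4 overlapped. How this bears on other values was not tested. The reference samples were 6 prostates of 6-week-old C57BL/6 mice (FS009 to FS014) and 6 MEF samples labelled as carrying 1 copy of a lacZ allele. Nothing in the labels says that samples of a group came from separate animals or cultures, so p-values measure the spread between these samples only.

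Foxa1 is a forkhead factor that opens chromatin for steroid hormone receptors. The OSKM factors return somatic cells to pluripotency when they act together for long enough, and pluripotent cells can form derivatives of every germ layer. Urogenital mesenchyme directs responsive epithelium towards prostate. In bulk RNA, fewer cells of a type and less RNA per cell cannot be told apart.

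The reads counted on genes, estimated from the steps between high values, ranged from 17371431 to 23446535 in the grafts, from 16767295 to 22512397 in prostate and from 20418167 to 26152349 in MEFs. Every gene has a value even without reads, scattered about a deposited value of -0.31, so the level that 3 reads would give served as the floor. This floor lay between 1.68 and 1.83 in the grafts with Foxa1 UTR reads and at 1.98 and 2.05 in those without. Between 5097 and 5244 genes were at or below it in the first set, against 6654 and 7017 in the second. Depth and floor thus moved with the sets, and with every value below the floor raised to it 2098 genes were still higher and 339 lower.

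The 2 sets stood further apart than the grafts within them. Of 16607 genes that passed a filter on low values (a mean over the 5 grafts of at least 10 on the linear scale), 655 to 1069 differed by 2 log2 units or more between any pair of the 3 grafts with Foxa1 UTR reads, and 1962 between FS007 and FS008. The 6 pairs across the sets differed at 2861 to 3577 genes. Chosen as higher were 2240 genes, 13.5% of those that passed the filter, and as lower 341, 2.05%. At any size of difference, 4853 genes (29.2%) were higher without overlap and 4086 (24.6%) lower, and the median difference over all genes that passed the filter was 0.08. The imbalance between 2240 and 341 therefore lies among the large differences. It depends on the scale, since quantile normalization gave 1388 higher and 886 lower genes, with 61.0% of the chosen genes higher instead of 86.8%. Without FS008 the lower genes numbered 545.

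For 1203 of the 2240 higher genes the linear mean of FS007 and FS008 was below 10, so they passed the filter only through the other grafts. In 514 of the higher genes FS007 and FS008 were both at or below 3 reads. In the lists described below, 8 of 20 higher skeletal muscle genes passed only through FS002, FS003 and FS005. So did 6 of 15 glial, 5 of 11 neuronal, 3 of 9 neuroendocrine, 6 of 16 airway and 7 of 13 gastrointestinal genes. The same holds for 4 of 5 hepatic, 3 of 10 stratified, 6 of 7 adipocyte, 2 of 10 imprinted and 3 of 5 prostate secretory genes. The median difference of the higher genes was 3.56, or 3.02 with values raised to the floor, and 259 differed by 6 or more. The lower genes had a median of -2.78, and 7 differed by 6 or more. At the threshold of 2, Zfpm1 (2.0006), Wdr93 and Pdzd4 were the nearest genes inside on the higher side and Amot (1.9999) the nearest outside. Cldn10 (-2.0029), Tgm5 and Cad were the nearest inside on the lower side and Eda2r (-1.99) the nearest outside.

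**Figure D1:**
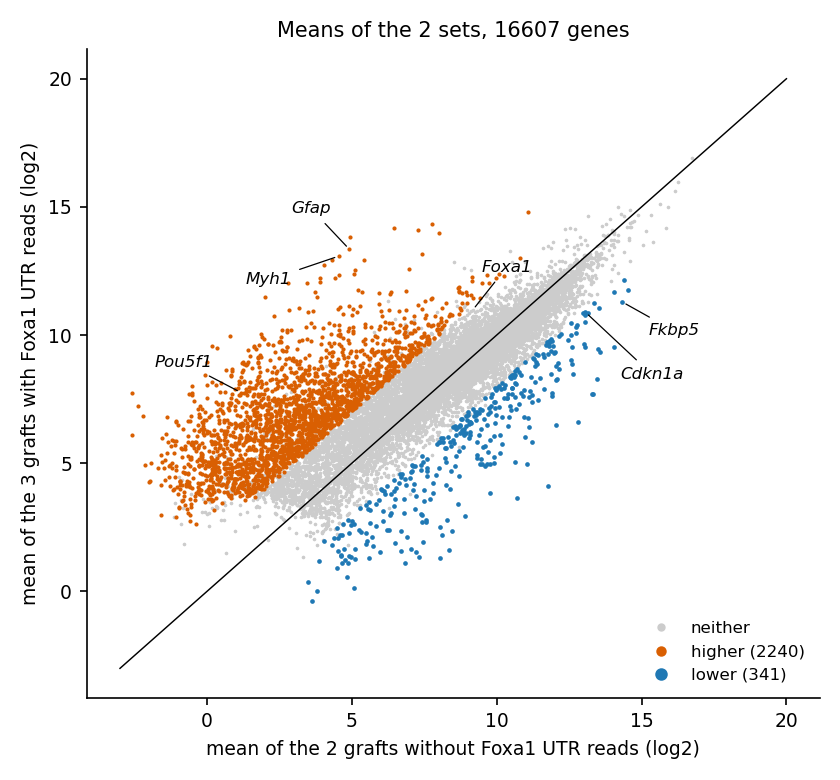
Mean deposited value (log2) of the 3 grafts with Foxa1 UTR reads (vertical axis) against that of the 2 grafts without (horizontal axis), 1 point per gene for the 16607 genes that passed the filter, with the line of equal values. The 2240 higher genes form a broad cloud above the line, with many near 0 on the horizontal axis, and the 341 lower genes a narrow band under it.

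Foxa1 itself was higher in the grafts with Foxa1 UTR reads, but this difference is not independent of the split. Reads of its UTR divided the grafts and also enter the value of the gene. Foxa1 (mm9, chr12:58641618-58647108, minus strand) had values of 10.77, 11.40 and 10.76 in FS002, FS003 and FS005 and of 9.37 and 8.97 in FS007 and FS008. The sets did not overlap, but the difference of 1.803 missed the limit of 2, so Foxa1 is not among the chosen genes. It would be chosen with quantile normalization, with a difference of at least 1, or without FS007. All 5 grafts were below the prostates, which ranged from 12.41 to 13.06, and above the MEFs, of which the highest was 5.32. The deposited values count each gene as a whole and do not separate reads of introduced copies from those of the mouse gene.

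Of the mouse genes of the OSKM factors, Pou5f1, which encodes Oct4, was the one chosen. Pou5f1 (chr17:35642982-35647721, plus strand) had values of 9.79, 4.52 and 8.96 in the grafts with Foxa1 UTR reads, and of 1.55 and 0.81, both below 3 reads, in those without. Against the floor its mean was at least 5.71 log2 units, or 52.4-fold, higher. FS003 was the lowest of the 3, and all 6 prostates were at or below 3 reads. Reads of human OCT4, or of processed copies of the gene elsewhere in the genome, could be counted there or lost, and that was not tested.

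Sox2 overlapped between the sets (10.75, 10.21 and 10.50 against 10.73 and 10.01), and so did Klf4 (9.78, 10.42 and 9.44 against 11.05 and 9.73). The sets were apart for Myc by 1.56 (9.42, 9.67 and 9.23 against 9.07 and 6.69), mostly through FS008, and without FS007 Myc would be chosen too. Sox2 was above every prostate in all 5 grafts.

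**Figure D2:**
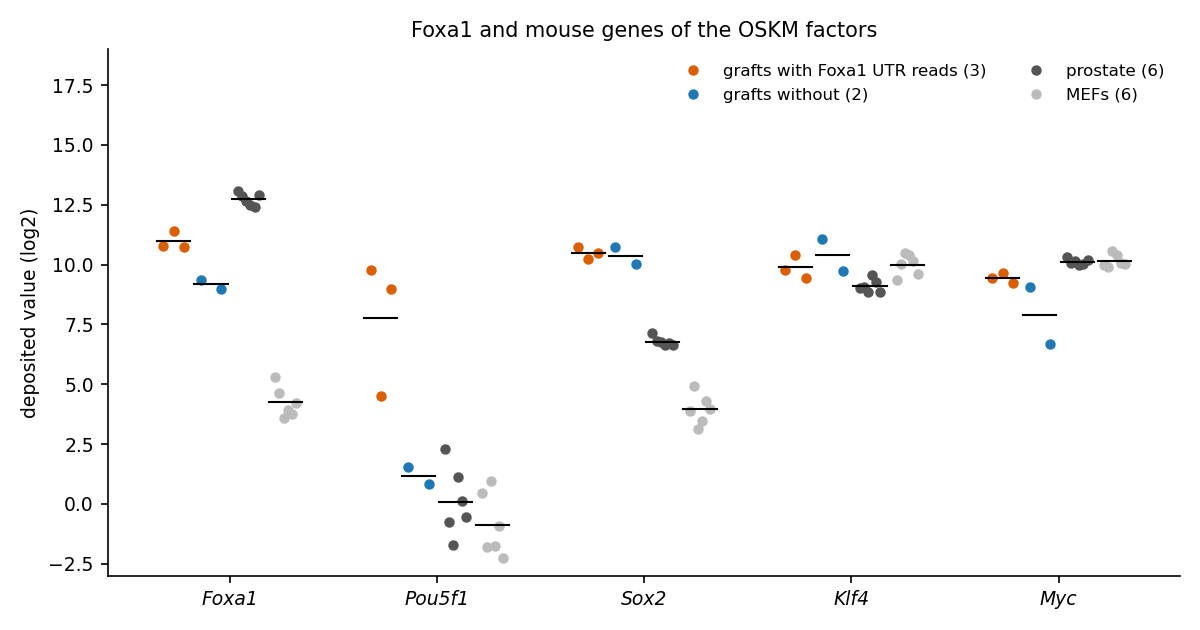
Deposited values (log2) of Foxa1 and the 4 mouse genes of the OSKM factors, 1 point per sample, with the mean of each group as a line. Foxa1 and Pou5f1 are high in the grafts with Foxa1 UTR reads, and Sox2 and Klf4 overlap between the sets.

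Pluripotency genes accompanied Pou5f1 unevenly. For this list and those below, the background is the share of all genes that passed the filter, 13.5% higher and 2.05% lower. The counts of a list are over its measured genes, whether or not they passed the filter. Of 24 measured, 16 were higher and 0 lower, with a median difference of 4.12 over all 24 (2.45 with values raised to the floor), against 0.12 over all genes in the table. In 10 of the 16 both other grafts were at or below 3 reads, and 15 passed the filter only through the grafts with Foxa1 UTR reads. Dppa5a, an RNA-binding protein of embryonic stem cells, had values of 9.54, 4.997 and 8.61 against -0.46 and -0.76 and was at least 5.67 log2 units higher. Lin28a, which blocks maturation of let-7 microRNAs, had 9.75, 6.50 and 9.75 against 2.30 and -0.59. Nanog, a core factor of the pluripotent state named after its values were seen, had 5.43, 2.16 and 5.84 against 1.08 and -0.14. FS003 was the lowest of the 3 for each of these genes. Without FS003 the list had 22 higher genes. Its summed linear level did not separate the sets (11412, 4155.6 and 7646.8 against 5129.3 and 5070.6) and was also 2282.3 to 6626.7 in prostate.

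Skeletal muscle genes had the largest median difference of the lists. All 20 measured were higher, with a median difference of 7.15, and no graft left out changed that count. Myh1, a fast myosin heavy chain, had values of 13.65, 12.88 and 12.70 in FS002, FS003 and FS005 and of 4.78 and 4.31 in FS007 and FS008, a difference of 8.53. Ckm, the creatine kinase of muscle, had 13.25, 11.98 and 11.41 against 4.84 and 2.99. Myl1, a myosin light chain, and Tnnt3, a fast troponin T, were apart by 9.24 and 8.68 and are also among the 12 largest differences of all. The list summed to 111370, 64635 and 70641 on the linear scale against 4948.6 and 1514.6. The lowest graft of the first set was 13.1 times the highest of the second. The prostates, at 6273.5 to 11171, were above FS007 and FS008.

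Neural genes were higher as well. Of 17 glial and neural progenitor genes 15 were higher and 1 lower, with a median difference of 5.33. Gfap, the intermediate filament of astrocytes, had values of 13.62, 14.34 and 12.08 against 5.23 and 4.601, a difference of 8.43. Olig1, a factor of oligodendrocyte precursors, had 8.37, 9.14 and 8.12 against 0.41 and 2.00, at least 6.50 higher. The lower member was Pax6, a factor of neural progenitors and of the eye and pancreas, named after its values were seen. It had 6.14, 5.52 and 7.54 against 10.92 and 11.34, and the prostates lay far below, at 0.69 to 3.42.

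Of 15 neuronal genes 11 were higher and 0 lower (median 4.57). Dcx, a microtubule protein of migrating neurons, had values of 8.996, 7.61 and 10.29 against 1.75 and 1.76, at least 6.92 higher, and Snap25, a synaptic vesicle fusion protein, 8.74, 9.37 and 8.13 against 4.01 and 0.65. All 9 neuroendocrine genes were higher (median 4.42, or 3.51 with values raised to the floor), among them Chga (8.35, 9.78 and 8.40 against 4.58 and 4.21) and Chgb (8.46, 9.73 and 10.15 against 3.16 and 3.06), both of which encode granins of secretory granules. Neuroendocrine cells are also a minor cell type of normal prostate. The list summed to 1931.2, 3808.6 and 2938.6 in the grafts with Foxa1 UTR reads, to 147.69 and 81.501 in those without and to 70.692 to 206.5 in prostate, so the first set stood above both. Syp counts in both the neuronal and the neuroendocrine list.

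Epithelial genes listed for organs other than prostate formed a further group. Of 19 ciliated and airway genes 16 were higher and 0 lower (median 3.80). Bpifa1 and Bpifb1, secreted proteins of the upper airway, had values of 12.73, 15.32 and 13.37 against 5.42 and 4.45, and of 11.36, 12.997 and 11.70 against 4.40 and 2.498. Of 22 gastrointestinal genes 13 were higher and 0 lower (median 4.66). Gkn1, secreted by the stomach lining, had 8.12, 13.001 and 7.16 against 2.34 and 0.50, and Cdx2, the homeobox factor of intestinal epithelium, 3.96, 9.07 and 8.33 against -0.43 and 0.07. FS003 was the highest graft for all 4. The gastrointestinal sum overlapped between the sets, since FS007 (38165) exceeded FS002 (15496). The prostates summed to 14874 to 27173 for this list, around FS002 and above FS008 (3115.9). For the airway list they summed to 1338.5 to 2247.4, below every graft.

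Hepatic and yolk sac endoderm genes went both ways, with 5 of 13 higher and 3 lower (8 higher without FS008 and 3 without FS003). Apob, the main protein of lipoprotein particles, had values of 8.59, 12.24 and 11.51 against 2.33 and 7.68. Fgb, the fibrinogen beta chain, had 4.27, 6.20 and 3.08 against 9.14 and 8.26. Ahsg and Rbp4, the other lower members, were named after their values were seen and differed by -3.21 and -2.46. Apoa4, an intestinal apolipoprotein outside the list, was among the largest differences, with 8.42, 13.69 and 12.34 against 1.49 and 2.55.

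The count of stratified epithelial genes depended on single grafts. Of 28 measured, 10 were higher and 0 lower, with a median difference of 3.35. Krt1, a keratin of differentiating epidermis, had values of 11.60, 10.39 and 7.94 against 5.53 and 3.63. The summed level of the list was highest in FS007 (72304) and lowest in FS008 (4668), with FS002, FS003 and FS005 at 61679, 54829 and 13918. Without FS007 the list had 24 higher genes and without FS005 18, whereas without FS008 it had 9 higher and 5 lower. Basal epithelial genes had 2 of 17 higher, Krt15 (14.08, 14.10 and 11.32 against 10.59 and 4.26) and Ngfr, close to the background, with 8 higher without FS007 and 1 without FS008.

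Of 10 adipocyte genes 7 were higher and 0 lower (median 4.15, or 2.57 with values raised to the floor), led by Cfd, a secreted protease of fat cells, with 12.24, 8.84 and 6.96 against 2.55 and 2.17. Of 18 cartilage and bone genes 5 were higher and 2 lower (4 lower without FS008). Col2a1, the main cartilage collagen, had 9.14, 7.73 and 12.12 against 2.05 and 2.20, whereas Chad, a cartilage matrix protein, had 8.33, 10.38 and 6.15 against 13.39 and 13.53. Fibroblast and matrix genes had 6 of 20 higher and 1 lower (Twist2). At any size, 15 were without overlap on the higher side (background 29.2%). For these lists the rat mesenchyme, the mouse host and the grafted cells cannot be told apart, because the table has 1 value per mouse gene.

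Imprinted genes had 10 of 18 higher and 0 lower, with a median difference of 4.002. H19, a maternally expressed RNA (chr7:149761434-149764048, minus strand), had values of 14.27, 14.26 and 14.41 in the grafts with Foxa1 UTR reads and of 5.70 and 9.80 in those without. Meg3 and Rian, RNAs of the Dlk1 cluster on chromosome 12, had 10.12, 11.44 and 11.89 against 4.94 and 5.63, and 10.61, 11.44 and 11.06 against 3.69 and 5.35. Igf2, the neighbour of H19, overlapped (10.53, 10.63 and 12.33 against 10.89 and 12.72) and was named after its values were seen. All 3 RNAs were also high in MEFs, in which H19 ranged from 12.87 to 15.89, and H19 was low in prostate, at 4.85 to 6.66. Hox genes had 6 of 39 higher, near the background, with Hoxc5 apart by 4.05, and without FS008 9 were higher and 5 lower.

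**Figure D3:**
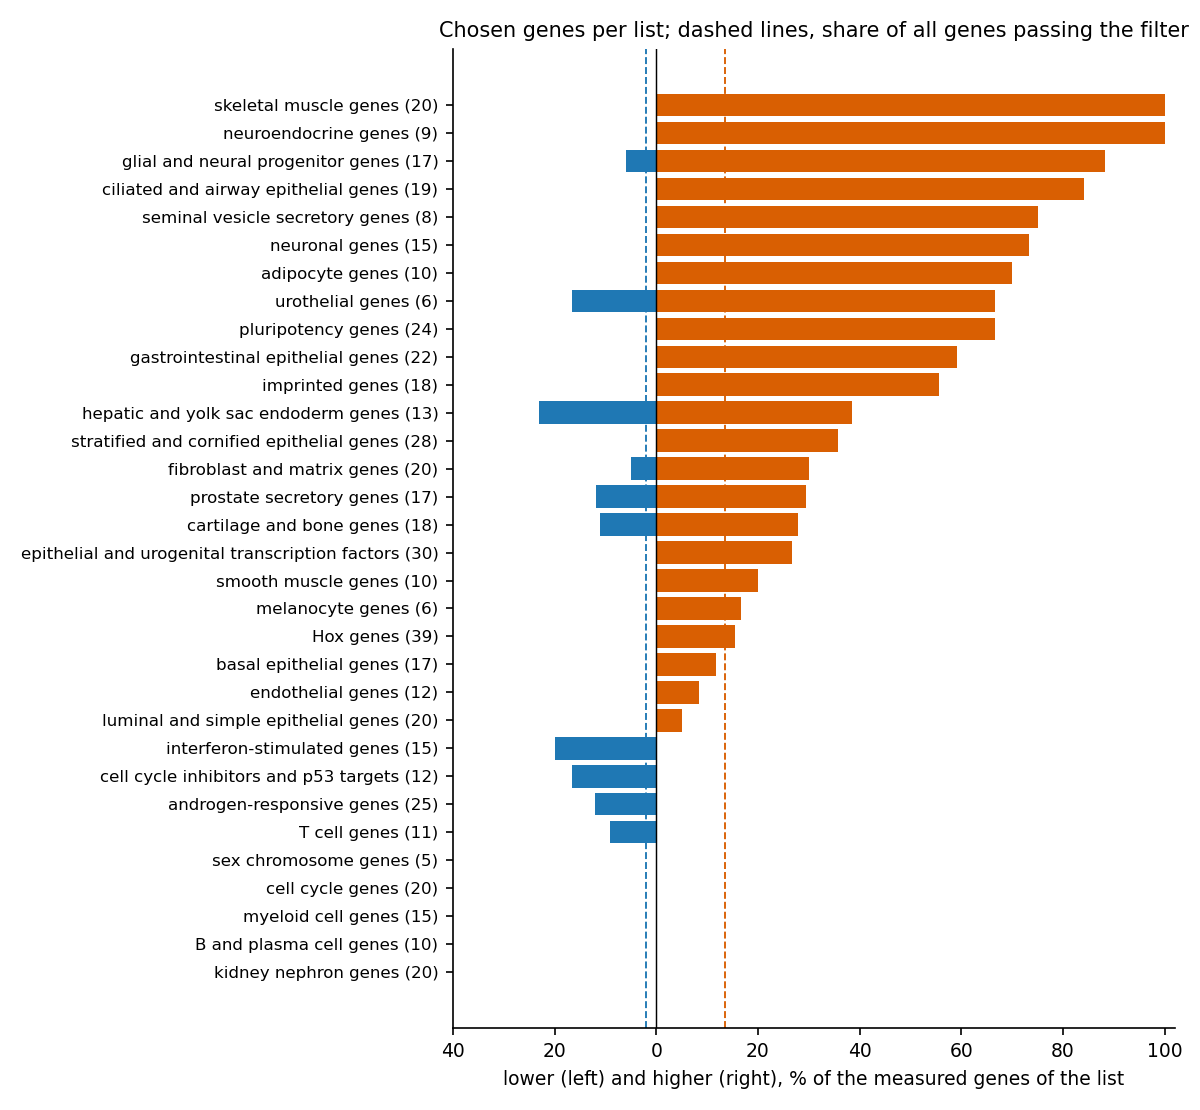
Share of the measured genes of each list (number in brackets) that were higher (right) or lower (left) in the grafts with Foxa1 UTR reads, for the 32 lists with 5 measured genes or more. Dashed lines mark the shares of all genes that passed the filter, 13.5% and 2.05%. Skeletal muscle and neuroendocrine genes were higher in every member, and 4 lists had lower genes and no higher one.

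Prostate secretory genes did not follow 1 direction. Of 17 measured, 5 were higher and 2 lower (1 lower without FS005), with a median difference of 1.42 (background 13.5% and 2.05%). Defb50, a defensin of prostate secretion, had values of 10.53, 9.79 and 6.72 against 3.33 and 2.57, a difference of 6.06. Msmb, a major secreted protein of prostate, had 7.08, 5.36 and 2.44 against 2.32 and 0.87, so FS005 was hardly above FS007. Mmp7, a matrix protease of glandular epithelium, had 10.44, 11.63 and 12.10 against 8.66 and 6.82.

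The lower secretory genes were 5430419D17Rik, with 5.07, 5.06 and 2.27 against 8.21 and 8.32, and Apof, named after its values were seen, with 6.65, 6.44 and 3.73 against 8.75 and 7.74. Pbsn (probasin), the classical androgen-driven secretory gene of mouse prostate, overlapped between the sets (8.32, 6.68 and 5.001 against 6.29 and 5.43) and is also named after the fact. The prostates exceeded every graft for all 6 of these genes, with Pbsn at 16.88 to 18.32 and Defb50 at 14.07 to 16.21. The secretory list summed to 14047, 12551 and 9941.4 in the grafts with Foxa1 UTR reads and to 4667.5 and 5071.1 in those without, against 1659600 to 3113400 in prostate. The MEF sums, 195.09 to 4670.1, reached the level of FS007. MEFs overlapped the grafts for Pbsn (highest MEF 8.55), 5430419D17Rik (7.01), Defb50 (6.53) and Msmb (5.97). For Mmp7 (4.71) and Apof (3.31) the highest MEF was below every graft. Why MEFs have such values was not tested.

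Seminal vesicle secretory genes were higher in 6 of 8 (median 6.30, or 5.27 with values raised to the floor). All 6 passed the filter only through the grafts with Foxa1 UTR reads. Svs4 had values of 8.11, 9.56 and 12.12 against 2.31 and 1.48, and Svs2, which encodes a semen coagulation protein, 7.99, 8.33 and 12.58 against 2.49 and 2.05. FS005 was the highest graft for both. The list summed to 1067.8, 2307.9 and 19689 against 22.165 and 21.458, and the prostates (27.217 to 94.764) lay near FS007 and FS008. Svs3a and Svs3b are close copies, so the split of reads between them is uncertain.

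Androgen-responsive genes had 0 of 25 higher and 3 lower, with a median difference of -0.05, close to that of all genes. Among the lower were Fkbp5, a co-chaperone of steroid receptors (11.27, 11.11 and 11.497 against 14.56 and 14.11), and Mme, a membrane peptidase (9.83, 9.84 and 9.77 against 12.07 and 12.82). FS007 and FS008 were above every prostate for Fkbp5 (11.502 to 13.01), and FS002, FS003 and FS005 were below the lowest. The list summed to 38202, 36519 and 39351 in the grafts with Foxa1 UTR reads and to 79306 and 82823 in those without, inside the prostate range of 77349 to 117870. Without FS008 2 of the 25 were higher. The list includes an introduced factor, so reads of introduced copies could enter its count and sum, and they were not separated.

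Luminal and simple epithelial genes differed little. Of 20 measured only Muc1, a membrane mucin, was higher (10.85, 12.17 and 9.77 against 6.74 and 6.49), none was lower, and the median difference was -0.31. Epcam (12.40, 13.32 and 12.97 against 12.71 and 11.03) and Krt8 (12.43, 13.45 and 13.48 against 13.84 and 13.10), both named after their values were seen, lay within 2 log2 units of the prostate means (12.99 and 12.77) in all 5 grafts. The summed level of the list overlapped between the sets (82275, 120670 and 81406 against 167300 and 77198).

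Among 30 epithelial and urogenital transcription factors 8 were higher and 0 lower, and without FS007 13 were higher. Foxa2 and Foxa3, the paralogs of Foxa1, had values of 8.22, 7.46 and 9.10 against 4.21 and 2.55, and of 5.51, 7.55 and 6.96 against 1.75 and -0.95. Prostates had at most 1.86 for Foxa2 and 2.24 for Foxa3. Elf5 (9.77, 8.89 and 7.96 against 6.15 and 0.23) and Tfap2c (8.71, 7.95 and 7.70 against 5.38 and 1.501), factors of glandular and surface epithelium, were at prostate level or nearer to it in the first set, with prostates at 7.72 to 8.80 and at 8.72 to 9.04. Of 6 urothelial genes 4 were higher, led by the uroplakin gene Upk1a (10.12, 9.86 and 8.95 against 4.32 and 3.53; prostates 11.40 to 12.74). Psca, a surface antigen of urothelium and prostate, was lower (11.98, 12.29 and 10.97 against 14.53 and 14.51).

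The genes lower in the grafts with Foxa1 UTR reads were led by a mixed group. Pkd2l1, a cation channel (chr19:44222127-44266932, minus strand), had values of 4.43, 4.08 and 3.77 against 11.56 and 12.005, a difference of -7.69. Etnk2, an ethanolamine kinase (chr1:135260149-135276913, plus strand), had 6.61, 6.40 and 6.82 against 12.96 and 12.66. Htra4, a serine protease, had 4.40, 4.32 and 6.20 against 10.95 and 11.12. For these 3 genes FS002, FS003 and FS005 lay within or below the prostate range and FS007 and FS008 were above it, by more than 3 log2 units.

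Further large lower differences were those of Usp50 (at least 6.20 lower against the floor), Lhx3 and Tbx5, both developmental transcription factors, and the immune receptor gene Tigit. Gucy2d, Amy2b of the amylase family, Dock2 and Ak5 were the others. Dock2, a regulator of migration in blood cells, had 7.24, 8.30 and 7.53 against 13.07 and 13.48. Ak5, an adenylate kinase of neural tissue, had 5.58, 6.27 and 3.34 against 10.69 and 10.59, beside 9.09 to 9.76 in MEFs. FS007 and FS008 did not agree in size for Gucy2d (9.17 and 4.49). Amy2b is annotated as a pseudogene on mm9, and its reads may be shared with amylase genes, so its values are uncertain.

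Interferon-stimulated genes had 0 of 15 higher and 3 lower, with a median difference of -1.42, and 11 were lower without overlap at any size (background 24.6%). Rsad2 (7.70, 7.81 and 8.31 against 10.97 and 10.06), Mx1 and Oasl2, all antiviral, were the 3. FS007 (38510) was well above FS008 (13134) in summed level, beside 6986 to 9929.5 in the first set. Without FS007 1 of the 15 was lower, as it was without FS002, and without FS008 7 were. Of 11 T cell genes 1 was lower, Cd5 (4.19, 3.79 and 2.87 against 7.94 and 7.48), while the T cell receptor genes Cd3e, Cd3d and Cd3g were not chosen. Without FS008 5 T cell genes were lower. Myeloid (15 measured) and B and plasma cell genes (10 measured) had none in either direction, though 2 myeloid genes were higher without FS007.

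Cell cycle inhibitors and p53 targets had 2 of 12 lower and 0 higher. Cdkn2a, which encodes the inhibitors p16 and p19 (chr4:88920377-88940557, minus strand), had values of 7.89, 7.11 and 8.12 against 10.07 and 10.69. Cdkn1a, the p53 target that encodes p21, had 11.03, 10.86 and 10.79 against 13.05 and 13.08. All 5 grafts were above the prostates for both. The MEFs, at 8.84 to 9.95 for Cdkn2a, lay between the sets. None of 20 cell cycle genes was chosen, but 12 were higher without overlap by less than 2 (background 29.2%), with a median difference of 0.67.

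Of the remaining lists, smooth muscle genes had 2 of 10 higher (4 without FS007 and 0 without FS008) and endothelial genes 1 of 12. These counts were near the background of 13.5%. Melanocyte genes had 1 of 6 higher, but only 3 of the 6 passed the filter, too few to set beside the background. The 5 sex chromosome genes had none in either direction. The grafts were taken from the host kidney, and 20 nephron genes had none chosen. Their summed level was 122130, 2775.3 and 267320 in FS002, FS003 and FS005 and 11417 and 271930 in FS007 and FS008, against at most 304.6 in prostate. The nephron sum thus differed widely within each set and did not follow the sets. Without FS007 12 nephron genes were lower and without FS008 5 were higher, and their part in other values was not tested.

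**Figure D4:**
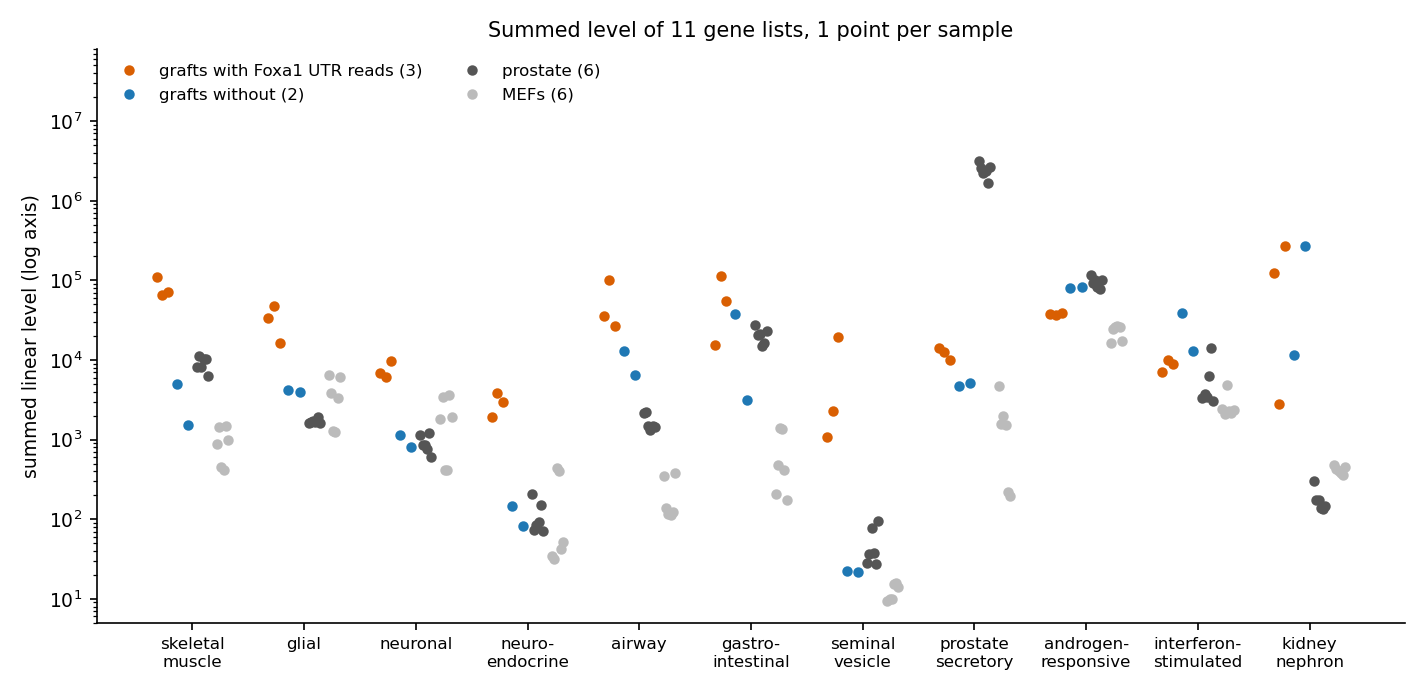
Summed linear level (log axis) of 11 gene lists, 1 point per sample, for the 5 grafts, 6 prostates and 6 MEF samples. Skeletal muscle, glial, neuronal, neuroendocrine, airway and seminal vesicle genes were higher in each graft with Foxa1 UTR reads than in FS007 and FS008, androgen-responsive and interferon-stimulated genes lower, and nephron genes varied without regard to the sets.

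Set beside prostate, the higher genes mostly lay away from it and the lower genes towards it in the grafts with Foxa1 UTR reads. The prostate mean was nearer to the grafts with Foxa1 UTR reads for 615 of the 2240 higher genes (27.5%), for 293 of the 341 lower genes (85.9%) and for 7695 of all 16607 genes (46.3%). In both directions the prostate mean was thus more often nearer to the set with the lower values. The choice of genes itself favours this. It required a large difference between the sets, and 1203 higher and 69 lower genes passed the filter only through the set where they were high. The share of all genes is therefore not a matched reference, and no likeness to prostate is read from these counts. It was below both sets for 41.3% of the higher and 64.2% of the lower genes, against 42.7% of all. It was above both for 11.2%, 5.87% and 32.0%. All 6 prostates were at or below 3 reads for 20.2% of the higher and 15.3% of the lower genes, against 5.73% of all.

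Of the chosen genes, those with the highest prostate mean on the higher side were Defb50, Msmb, Rnase1, a secreted ribonuclease, and Rcn1, a calcium-binding protein of the endoplasmic reticulum. On the lower side they included Ceacam1, an adhesion molecule of epithelia, Abo, a glycosyltransferase, and Prom2, a membrane glycoprotein of epithelial protrusions. Ceacam1 had 11.59, 12.08 and 12.81 against 14.88 and 13.89 (prostates 13.95 to 14.11), and Prom2 10.35, 9.74 and 8.85 against 13.54 and 12.49 (prostates 12.56 to 13.92). For these 2 genes FS007 and FS008 were at or near the prostate level. Rcn1, with 11.71, 11.30 and 10.71 against 9.10 and 8.53, was below prostate (13.55 to 14.17) in all 5.

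Across 16101 genes, the Spearman correlation with the prostate mean was 0.7998, 0.798 and 0.766 in FS002, FS003 and FS005 and 0.815 and 0.807 in FS007 and FS008. The correlations with the MEF mean were 0.747, 0.728 and 0.720, and 0.737 and 0.739. Each graft was thus closer to prostate than to MEFs by this measure, and the 2 sets differed by little. The points are genes, which are not independent, and all correlations share 1 prostate mean.

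Prostate and MEF samples were not used to choose the 2581 genes, so the comparison between them could be tested. Of 14560 genes tested with limma, 27.8% were higher in prostate and 20.5% higher in MEFs (Benjamini-Hochberg adjusted p under 0.05 and a log2 difference of at least 1). Of the genes higher in the grafts with Foxa1 UTR reads 1222 could be tested, and 486 (39.8%) were higher in prostate and 436 (35.7%) higher in MEFs. Of the lower genes 219 could be tested, and 120 (54.8%) were higher in prostate and 53 (24.2%) higher in MEFs. Both chosen groups thus exceeded all genes in both directions. They were chosen for a large difference between grafts, so all genes are not a matched reference here either. No likeness to prostate is read from these shares. The split of the higher genes between prostate and MEFs depended on the setting. Quantile normalization gave 403 (33.0%) higher in prostate and 529 (43.3%) higher in MEFs, against 23.6% and 23.9% of all genes. A linear mean of 100 or more gave 175 (32.9%) and 254 (47.7%), against 22.7% and 20.8%. With no minimum difference the prostate share, 42.0%, was below that of all genes, 44.95%.

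Single genes show both sides. Upk1a was higher in prostate than in MEFs by 8.85 ± 0.22 (SE, limma adjusted p = 6.78e-12), and Elf5 by 8.77 ± 0.50 (limma adjusted p = 2.97e-09). H19 was higher in MEFs, at -8.63 ± 0.55 for prostate minus MEF (limma adjusted p = 9.78e-09), as were Peg10 and Rian. Of the lower genes, Fkbp5 was higher in prostate by 2.91 ± 0.26 (limma adjusted p = 2.45e-07). Cdkn2a was higher in MEFs, at -7.54 ± 0.33 for prostate minus MEF (limma adjusted p = 2.78e-10). Groups of 6 and 6 samples did not overlap for any of these genes. The MEF samples fell into 3 close pairs (FS015 with FS020, FS016 with FS019, FS017 with FS018). They were fitted as 6 separate samples, so these standard errors and p-values may be too small. With each pair averaged, 506 of the higher genes were higher in prostate and 406 higher in MEFs.

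**Figure D5:**
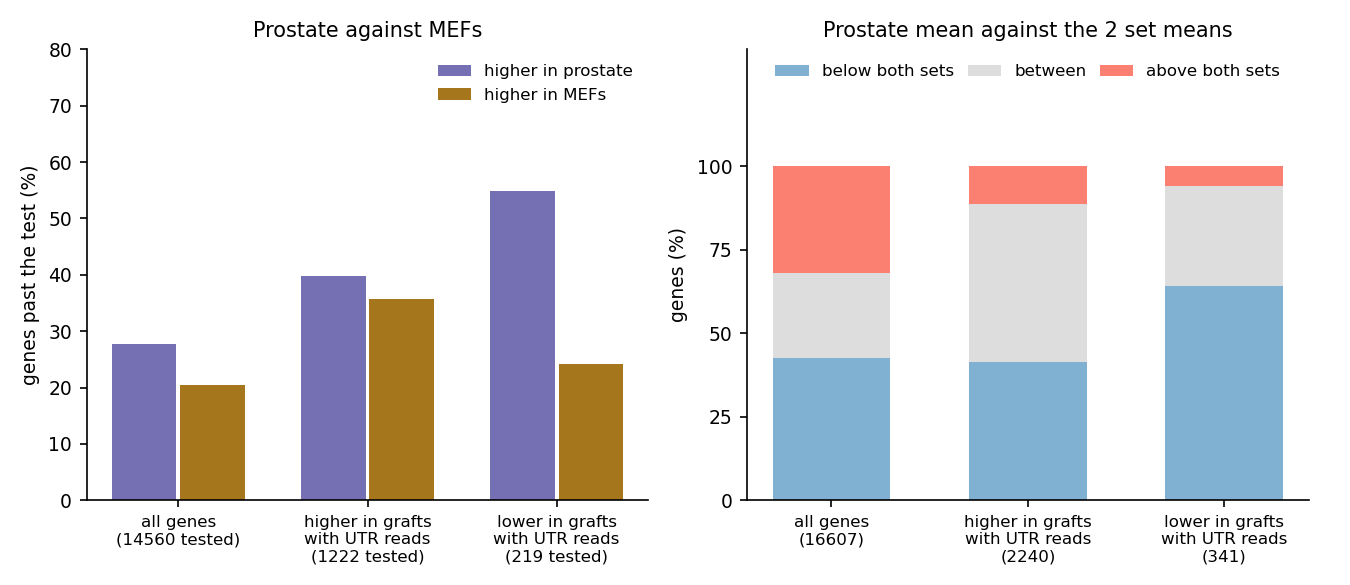
Left, share of genes (%) higher in prostate or in MEFs by limma, for all 14560 genes tested and for the tested genes chosen as higher (1222) or lower (219). Right, share of genes (%) for which the prostate mean lay below, between or above the means of the 2 sets. Both chosen groups had larger shares than all genes in both directions on the left, and all genes are not a matched reference for them. The prostate mean was rarely above both sets for the chosen genes.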

How the data were processed

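The members and the gene lists were chosen with earlier results of these data known. RNA-seq values of 5 iEpt+NAF grafts, 6 prostates and 6 MEF samples were used. The other 2 grafts of the series, in a table normalized on its own, were not used here. The submitters' processing notes name bcl2fastq 1.8.4, TopHat, Cufflinks, DESeq and mm9. The authors deposited log2 values after normalization of read counts with DESeq. Between 11.5 and 15, all values were whole reads (within 0.05) multiplied by a factor particular to each sample, on top of a common offset. Lower values carry added scatter, so reads were not recovered and no count test was run.

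Sets were compared on the deposited log2 values without a pseudocount. Linear values are 2 to the deposited value. Genes needed a linear mean of at least 10 over the samples compared. A gene was chosen with no overlap between the sets and a difference of at least 2. For a gene at or below 3 reads in a whole set, the other set's mean was compared with the highest 3-read value of that set. The test of prostate against MEFs used limma 3.58.1 (R 4.3.3) with a trended prior over all genes and was checked on simulated data. Pairs of close MEF samples differed by more than sampling noise and were kept apart.

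Named genes are the introduced factors and OSKM genes, the 12 largest differences in each direction (without predicted genes), up to 4 chosen genes per list, and the 4 with the highest prostate mean in each direction. Genes outside this rule are marked, and the results of some genes are not reported here. There were 34 lists. Alternatives changed the filter, the size of the difference, the normalization, the pseudocount (1 or 16) and the samples. The values raised to the floor and the averaged MEF pairs were chosen after seeing the data. Positions are from GENCODE M1 on mm9. Floors cover counting error only. Python 3.11.15, pandas 2.3.3, numpy 2.4.6, scipy 1.17.1 and matplotlib 3.10.9 were used.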

Additional observations from a re-analysis of the deposited data

Results flagged for a closer look

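Of 276 sets of values checked, 7 held a sample far from the others of its group, where about 1 in 20 would by chance. Among the grafts, FS008 was low for Myc (6.69, the others 9.07 to 9.67), and the summed myeloid genes were high in FS003 (log2 14.89, the others 13.82 to 14.07). Among the prostates, FS009 was high for Sox2 (7.12, the others 6.64 to 6.82), high for Col9a2 (6.54, the others 3.68 to 4.63), low for Gjc3 (1.94, the others 4.12 to 5.02) and high for the summed nephron genes (log2 8.25, the others 7.09 to 7.46). FS012 was high for Tnnt3 (7.74, the others 2.72 to 3.83).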

How the results depend on the processing

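The counts of 2240 higher and 341 lower genes moved by over 1.5 times under some settings. A difference of at least 1 gave 3385 and 1099 genes and one of at least 3 gave 1432 and 153. Quantile normalization gave 1388 and 886, and 1361 and 336 of these were among the chosen genes. Of the higher genes, 996 remained with a linear mean of at least 100 and 1224 with 16 added to the linear values. Leaving out each graft in turn gave 2147 to 2689 higher and 351 to 545 lower genes, the 545 without FS008. With a linear mean of at least 100, the higher genes were split into 175 higher in prostate and 254 higher in MEFs, and 69 lower genes exceeded MEFs in prostate. The mean correlation with prostate was 0.706 and 0.768 in the grafts with and without Foxa1 UTR reads by Pearson, and 0.888 and 0.894 by Spearman without a filter. The cause was not tested for any of these. No named gene that was chosen changed the sign of its difference under the settings run. In 98 of 952 list counts under an alternative, the value moved by over 1.5 times. With 3 and 2 grafts, the spread within FS007 and FS008 rests on 1 pair.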
